A study of Mus musculus with 8 samples.

Results

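Imprinted genes that act on growth were followed in 8 tumours that 4T1 cells, from a mammary carcinoma of the mouse, had formed: 4 PRH-labelled tumours, whose cells had been infected with an adenovirus carrying PRH, and 4 control tumours, whose cells had received an empty adenovirus. The genes were a list of 10 (H19, Meg3, Dlk1, Peg3, Peg10, Mest, Plagl1, Cdkn1c, Grb10 and Ndn), and every non-control probe whose RefSeq accession led to one of them was kept. This gave 19 of the 55681 non-control probes, printed in 28 spots, for 9 of the 10 genes (of 20145 named genes in all). No probe led to H19, whose level was not analysed here. Nckap1 and Aggf1, which carry H19 and Peg3 among their old names, were not taken as members. Per the labels, infection lasted 24 h at a multiplicity of 50, cells went into a fat pad of female BALB/C mice aged 6 to 8 weeks, and tumours were taken on day 22. Each group holds mouse numbers 1, 2, 3 and 5. The labels name both whole tumours and endothelial isolates as the source of the RNA, so the material is not settled. In either, fewer cells of a type and less RNA per cell cannot be told apart.

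In mammals an imprinted gene is expressed mainly from the copy inherited from 1 parent, in most cases because DNA methylation set in the germ line differs between the copies. Many such genes act on fetal and placental growth: those expressed from the paternal copy (Dlk1, Peg3, Peg10, Mest, Plagl1 and Ndn here) include several growth promoters, and those expressed from the maternal copy (H19, Meg3 and Cdkn1c, and Grb10 outside the brain) include several growth inhibitors. Most fall to low levels in adult tissue and remain in muscle, endocrine and some stem cells. Plagl1, a zinc finger transcription factor, is known to bind control regions of other imprinted genes.

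The array itself set the scale of what follows. Values are log2 of the background-corrected signal over the array's 75th percentile, so 0 is the 75th percentile of that array and each unit is a doubling. That percentile was 722.4 ± 41.2 on the PRH-labelled arrays and 1094 ± 131 on the control arrays (n = 4 each, ± is the SD; p = 0.0286 by exact permutation, the smallest that 4 against 4 arrays allow), and 73.2% ± 0.776 and 66.7% ± 2.30 of probes were well above background. All arrays lay on 1 slide and in 1 scan, with PRH-labelled arrays in one row of positions and control arrays in the other row, so position and group cannot be told apart. The probe of Hhex, the gene of PRH, was lower on the PRH-labelled arrays, by 1.09 on the log2 scale (-1.67 ± 0.14 against -0.58 ± 0.20, n = 4 each, limma adjusted p = 0.00673). This probe thus goes against the label, but whether it reads the PRH carried by the virus is not known. Every direction here is that of the label. Over all 39453 tested probes 26.2% passed, 16.1% higher and 10.1% lower, and the median difference was 0.22. The split of 6352 higher and 3974 lower calls moved with the scaling: median centring gave 3119 higher and 9862 lower, quantile normalization 4468 higher and 6227 lower, normexp 9710 higher and 4068 lower, and the authors' own values 3986 higher and 5886 lower. Probes with a gene name split otherwise than the rest: 9.88% of them were higher and 14.4% lower.

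Of the 16 member probes that could be tested, 1 was called with the 75th percentile scaling. Of the 19 probes 16 passed the filter on dim probes (4 or more of the 8 arrays well above background), with at least 1 for each of the 9 genes. A single probe, one of 4 for Plagl1, was called higher, and 0 were called lower, against 16.1% and 10.1% of all tested probes, and 9.88% and 14.4% of those with a gene name (limma, Benjamini-Hochberg adjusted p under 0.05). At an unadjusted p under 0.05 there were 4 such probes, those in which the groups did not overlap: 3 for Plagl1 and 1 for Cdkn1c. That is 4 of 16, beside 15460 of all 39453 tested probes at that unadjusted p. The groups did not overlap in 31.5% of all tested probes. The median difference of the 16 was 0.27, beside 0.22 over all tested probes, -0.047 over those with a gene name, to which every member probe belongs, and 0.63 over those without one. The remaining 12 differed by -0.30 to 1.27, each with overlapping groups. Adjusted p-values of these 12 were 0.307 to 0.972, with standard errors up to 0.966, and a p that misses the threshold does not show that the groups were alike.

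**Figure D1:**
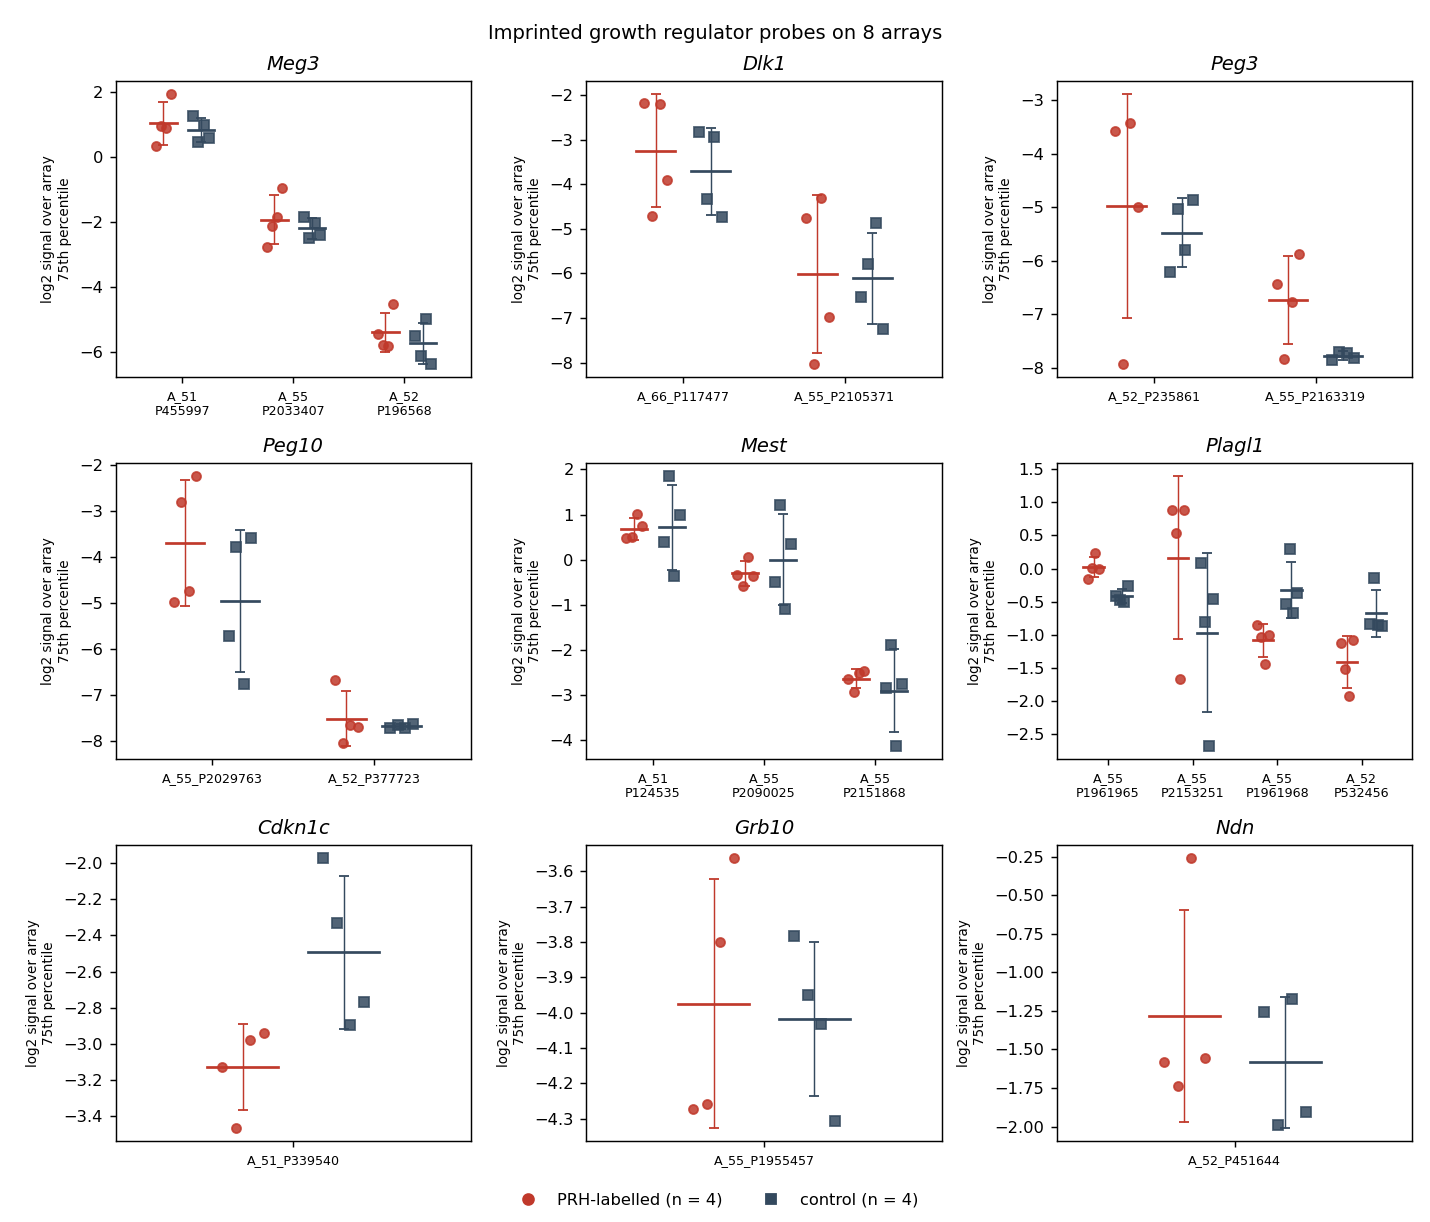
Level of each of the 19 probes, as log2 signal over the array's 75th percentile (vertical axis), in PRH-labelled (circles, left) and control (squares, right) tumours, 4 arrays each; bars are mean ± SD. The groups stand apart in 3 of the 4 Plagl1 probes and in Cdkn1c. Levels of different probes are not comparable with each other.

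**Figure D2:**
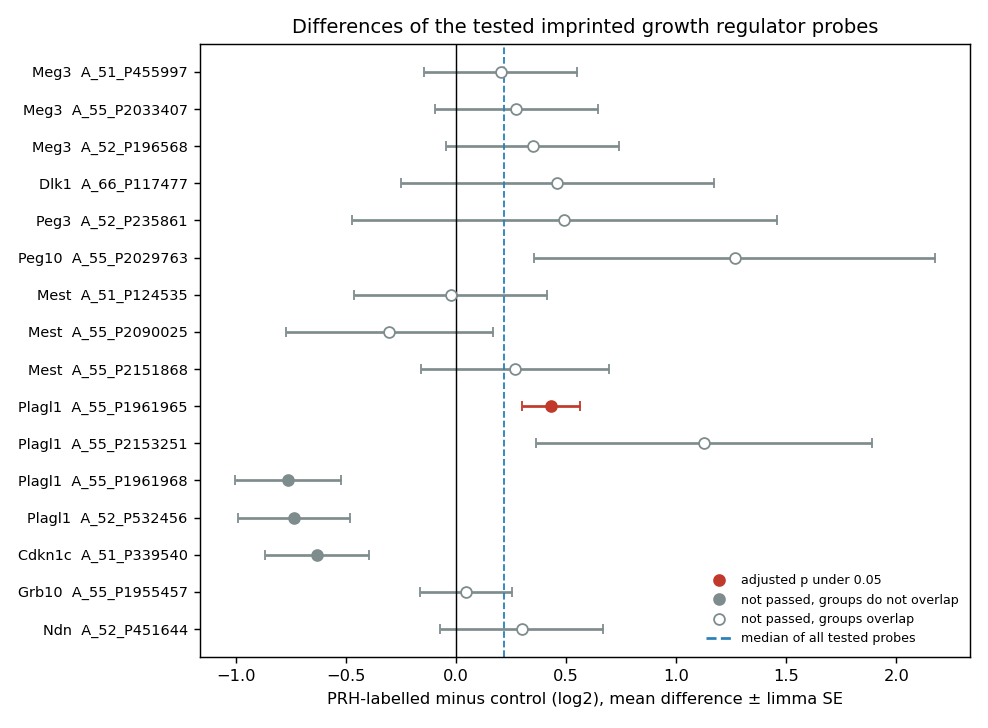
Difference, PRH-labelled minus control, in log2 units with the limma standard error, for the 16 tested probes; the dashed line is the median of all 39453 tested probes (0.22). Only A_55_P1961965 of Plagl1 passed the threshold.

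Plagl1 was the 1 member with a called probe, and its 4 probes did not move together. The start region of the gene (RefSeq, GRCm38.p6, chr10:13090582-13090881, plus strand, 250 bases before to 50 after the start) is shown because the result turns on this gene and its imprint is read at CpG-rich sequence. It holds 26 CpG, in capitals, more than 83.1% of the 32851 start regions of the same length in the table (median 7).
Plagl1: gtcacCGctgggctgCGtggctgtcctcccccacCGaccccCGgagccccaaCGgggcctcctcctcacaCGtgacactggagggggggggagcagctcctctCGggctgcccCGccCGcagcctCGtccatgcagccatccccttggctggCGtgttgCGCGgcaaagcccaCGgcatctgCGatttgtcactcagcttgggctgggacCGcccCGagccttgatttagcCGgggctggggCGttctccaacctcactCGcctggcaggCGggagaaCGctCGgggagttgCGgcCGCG

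Probe A_55_P1961965 of Plagl1 stood at -0.15, 0.01, 0.23 and 0.00 in the PRH-labelled tumours of mice 1, 2, 3 and 5, against -0.41, -0.47, -0.50 and -0.26 in the control tumours of the same numbers. On this scale every PRH-labelled array was above every control array. In signal units the PRH-labelled arrays read 612, 769, 814 and 753 and the control arrays 756, 927, 767 and 841. Before scaling the groups therefore overlapped. The difference was 0.43 (SE 0.131, limma adjusted p = 0.0458), which is 0.21 above the median of all probes and 0.48 above that of probes with a gene name. The call was lost with the mouse number as a block (adjusted p = 0.0768), with quantile normalization (0.0675), with spike-in centring (0.650) and without the filter (0.0704). It was also lost in 7 of 8 fits without 1 array (adjusted p up to 0.105, without control 2; the fit without control 1 kept it), and the sign turned after median centring (-0.034).

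The signs were opposite for 2 other Plagl1 probes. Probe A_55_P1961968 stood at -0.85, -1.03, -1.44 and -1.0 in PRH-labelled tumours and at -0.54, 0.29, -0.66 and -0.36 in control tumours, a difference of -0.76 (SE 0.240, adjusted p = 0.0516). Probe A_52_P532456 stood at -1.12, -1.52, -1.93 and -1.08 in PRH-labelled tumours and at -0.84, -0.15, -0.84 and -0.86 in control tumours, a difference of -0.74 (SE 0.255, adjusted p = 0.0689). In both, all 4 PRH-labelled arrays lay below all 4 control arrays, and 0 of 4 same-numbered pairs were higher. Both passed in the other 4 scalings based on all probes (differences down to -1.23 and -1.20) but not with spike-in centring (adjusted p = 0.297 and 0.281). Blocking on mouse number brought the first past the threshold as well (adjusted p = 0.0404). Across the 8 arrays they followed each other (Pearson r = 0.955, a description over arrays that share the scaling) and ran against A_55_P1961965 (r = -0.827 and -0.879).

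The last Plagl1 probe, A_55_P2153251, was at 0.89, 0.54, -1.67 and 0.88 in PRH-labelled tumours and at 0.08, -0.81, -2.67 and -0.46 in control tumours. Mouse number 3 was lowest in both groups, which widened the spread (SD 1.23 and 1.19). The difference of 1.12 (SE 0.762) did not pass (adjusted p = 0.307), and was 0.56 without control 3 and 1.73 without PRH 3. Within numbers it was 0.81, 1.35, 1.0 and 1.34, higher in 4 of 4 pairs, and the probe passed once mouse number was blocked (adjusted p = 0.0104). All 4 probes carry the accession NM_009538, and the files do not say which part of the transcript each one reads. A single direction for Plagl1 therefore cannot be given from these arrays.

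**Figure D3:**
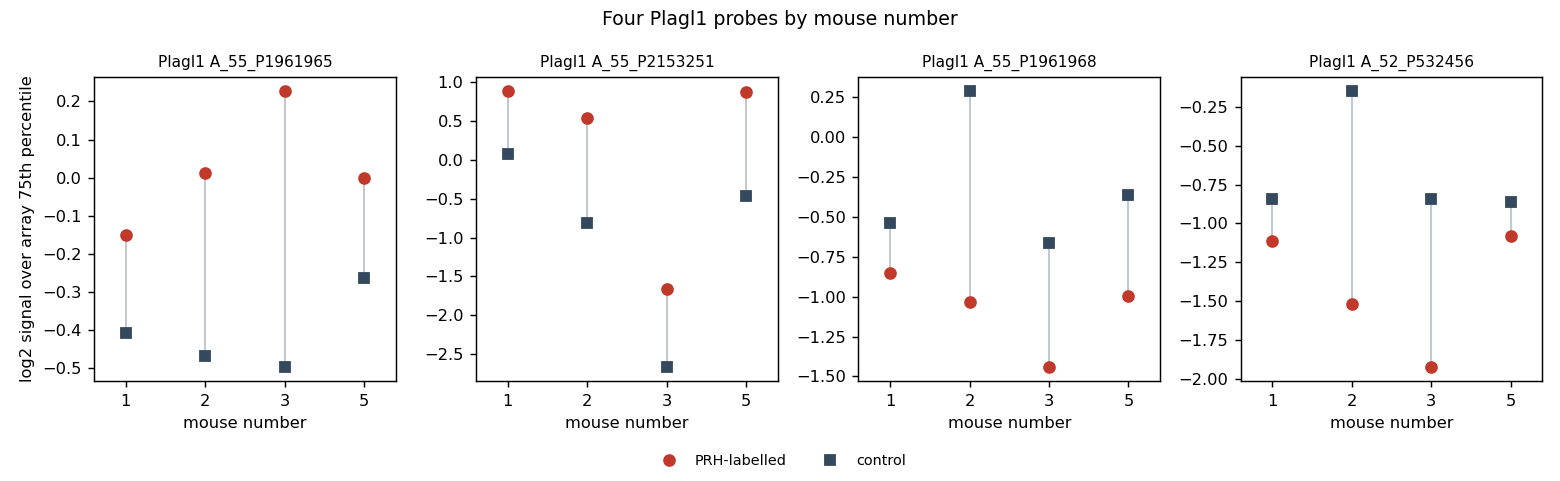
Level of the 4 Plagl1 probes (log2 signal over the array's 75th percentile) by mouse number, PRH-labelled (circles) and control (squares), with grey lines joining same-numbered arrays. PRH-labelled lies above control in all 4 pairs of the first 2 probes and below it in all 4 pairs of the other 2.

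Cdkn1c encodes p57Kip2, an inhibitor of cyclin-dependent kinases, and is a maternally expressed brake on growth. Its 1 probe stood at -3.12, -3.46, -2.98 and -2.94 in PRH-labelled tumours and at -1.98, -2.33, -2.90 and -2.77 in control tumours. The groups did not overlap; control 3 was closest to the PRH-labelled arrays. The difference was -0.63 (SE 0.236, adjusted p = 0.0866), or 0.85 below the median of all probes and 0.59 below that of probes with a gene name. Some other scalings brought it past the threshold, namely median centring (-1.10), quantile normalization (-1.08) and the authors' values (-0.69), while normexp left -0.14. Same-numbered pairs differed by -1.15, -1.13, -0.08 and -0.17, so the size rested on mouse numbers 1 and 2.

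Meg3 and Dlk1 lie beside each other on chromosome 12 and are expressed from opposite parental copies. Dlk1 encodes a transmembrane protein of the Notch ligand type that holds preadipocytes undifferentiated, and Meg3 is a long noncoding RNA. Their start regions are shown for comparison, with CpG in capitals (RefSeq, GRCm38.p6, both on the plus strand, Dlk1 at chr12:109452573-109452872 and the first of 2 listed for Meg3 at chr12:109540746-109541045). They hold 9 and 13 CpG.
Dlk1: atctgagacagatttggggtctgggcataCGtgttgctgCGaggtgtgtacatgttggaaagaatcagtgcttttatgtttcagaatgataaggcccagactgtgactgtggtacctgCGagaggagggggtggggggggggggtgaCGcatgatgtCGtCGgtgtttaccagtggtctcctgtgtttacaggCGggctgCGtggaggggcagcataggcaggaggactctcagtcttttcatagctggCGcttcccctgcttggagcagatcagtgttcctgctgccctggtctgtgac
Meg3: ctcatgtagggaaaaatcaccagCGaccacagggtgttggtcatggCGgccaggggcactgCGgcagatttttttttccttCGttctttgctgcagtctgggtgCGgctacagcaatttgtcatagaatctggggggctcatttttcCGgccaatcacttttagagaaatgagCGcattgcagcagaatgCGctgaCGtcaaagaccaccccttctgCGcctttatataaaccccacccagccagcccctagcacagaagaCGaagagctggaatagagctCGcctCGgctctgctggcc

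Meg3 probe A_51_P455997 stood at 0.35, 0.96, 0.91 and 1.93 in PRH-labelled tumours of mice 1, 2, 3 and 5 and at 1.28, 0.46, 1.00 and 0.60 in control tumours. PRH 5 was the highest and PRH 1 the lowest of the 8 arrays, and the other 6 lay between. The difference was 0.20 (SE 0.348, adjusted p = 0.681). A second probe gave the same order of PRH-labelled arrays' extremes (A_55_P2033407, -2.75, -2.11, -1.85 and -0.96 against -1.84, -2.49, -2.02 and -2.40 in control, difference 0.27, SE 0.369). The last Meg3 probe, well above background on 2 of 4 arrays in each group, differed by 0.35 (SE 0.394, adjusted p = 0.531). Among the scalings, normexp alone brought this probe past the threshold (0.42, SE 0.138, limma adjusted p = 0.0444). PRH 5 was also its highest array, at -4.51, and without it the difference was 0.061. Without PRH 5, the first 2 probes stood at differences of -0.094 and -0.046.

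Dlk1 varied more with the mouse number than with the group. Its tested probe, A_66_P117477, was at -2.18, -4.71, -2.20 and -3.90 in PRH-labelled tumours and at -2.82, -4.34, -2.94 and -4.74 in control tumours. In both groups mice 1 and 3 were above mice 2 and 5. The difference between the groups was 0.46 (SE 0.711, adjusted p = 0.647). It ran from 0.10 (without PRH 1) to 0.95 (without PRH 2) when single arrays were left out, and its sign turned after median centring (-0.0049) and quantile normalization (-0.031). The other Dlk1 probe, well above background on 2 of 4 PRH-labelled and 1 of 4 control arrays, did not pass the filter. It stood at -4.75, -8.03, -4.31 and -6.97 against -6.52, -5.78, -4.88 and -7.26 in control.

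Peg10, a gene derived from a retrotransposon and needed for the placenta, followed the mouse number in the other direction. Its tested probe, A_55_P2029763, stood at -4.97, -2.80, -4.72 and -2.24 in PRH-labelled tumours and at -5.70, -3.77, -6.74 and -3.57 in control tumours. In both groups mice 2 and 5 were above mice 1 and 3. In signal units the PRH-labelled arrays read 21.7, 109, 26.3 and 160 and the control arrays 19.3, 93.9, 10.1 and 84.7, and only mice 2 and 5 of the control group were well above background, against all 4 PRH-labelled arrays. The difference was 1.27 (SE 0.911, adjusted p = 0.334). It was 0.27 in the authors' values, 0.70 with normexp and 0.72 with quantile normalization, and ran from 0.67 (without control 3) to 1.72 (without control 5) when single arrays were left out. Within mouse numbers it was 0.73, 0.97, 2.02 and 1.34, higher in 4 of 4 pairs, and it passed once mouse number was blocked (adjusted p = 0.0189). The other Peg10 probe was dim on all 8 arrays and not tested.

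The share of each probe's spread over the 8 arrays that followed the mouse number, a measure chosen after the values were seen, puts these patterns beside the whole array. It was 88.8% for Dlk1, 76.8% for Peg10, 76.7% for Plagl1 probe A_55_P2153251 and 73.5% for Ndn, against a median of 31.5% and a 90th percentile of 75.4% over all tested probes. For the other 12 tested member probes it was 6.67% to 33.3%. The mouse number is also the position along the slide, so number and position cannot be told apart, and the labels do not say that same-numbered tumours grew in 1 animal.

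**Figure D4:**
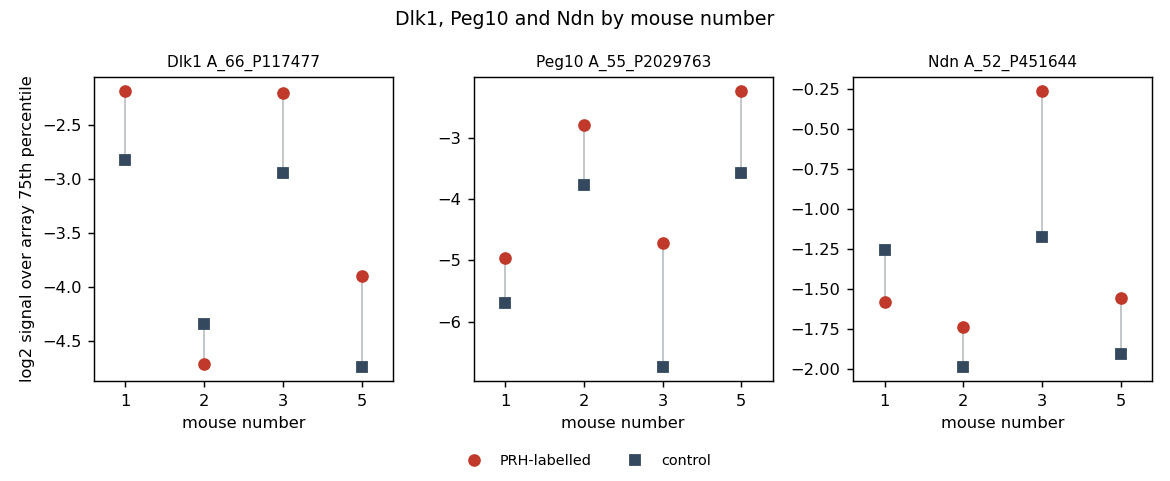
Level of the tested Dlk1, Peg10 and Ndn probes (log2 signal over the array's 75th percentile) by mouse number, PRH-labelled (circles) and control (squares), with grey lines joining same-numbered arrays. Dlk1 is high in mice 1 and 3 of both groups, Peg10 in mice 2 and 5 of both, and Ndn highest in mouse 3 of both.

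Ndn encodes necdin, a MAGE family protein that restrains cell division in neurons. Its probe stood at -1.58, -1.74, -0.26 and -1.55 in PRH-labelled tumours and at -1.26, -1.99, -1.18 and -1.90 in control tumours. PRH 3 stood well above the other 7 arrays, and control 3 was the highest of the control arrays. The difference of 0.30 (SE 0.370, adjusted p = 0.569) became -0.044 without PRH 3.

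Mest, a paternally expressed gene for a protein of the hydrolase fold, has 3 probes, and its variation lay within the control group. Probe A_51_P124535 stood at 0.49, 0.51, 1.01 and 0.74 in PRH-labelled tumours and at 0.39, 1.85, -0.37 and 0.99 in control tumours. Control 2 was the highest and control 3 the lowest of the 8 arrays. The SD was 0.24 in the PRH-labelled and 0.94 in the control group. This probe is printed in 10 spots, whose SD within an array was 0.06 to 0.12, a measure of spot noise alone. The other 2 probes, A_55_P2090025 and A_55_P2151868, had the same highest and lowest arrays, at 1.22 and -1.09 and at -1.89 and -4.11. The 3 differences between the groups were -0.02, -0.30 and 0.27 (SE 0.438, 0.470 and 0.427), none passing (adjusted p = 0.972, 0.648 and 0.655).

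The summed level of 10 of 10 skeletal muscle markers had the same extremes as Mest. It was 7.91, 5.95, 5.85 and 11.1 times the array's 75th percentile in PRH-labelled tumours of mice 1, 2, 3 and 5 and 4.44, 19.2, 2.62 and 6.75 times in control tumours, highest in control 2 and lowest in control 3. Probe by probe, 4 of the 11 tested muscle probes had both extremes (Acta1, Myh4, Actn3 and Tnnc2). Mylpf, the 1 muscle marker called, had neither. It was higher in PRH-labelled tumours by 1.31 without overlap (limma adjusted p = 0.00673), highest in PRH 1 (-3.22) and lowest in control 5 (-4.98). Endothelial markers had both extremes too, in 6 of 9 tested probes (Cdh5, Tie1, Tek, Esam, Emcn and Cldn5). Cldn5, a tight junction gene, stood at 2.09, 1.94, 2.33 and 2.24 in PRH-labelled tumours and at 1.21, 2.46, -0.51 and 1.54 in control tumours. Of 6 muscle progenitor markers 3 passed the filter, and of these Des alone had both extremes (Pax7 was highest in PRH 5, Myog in PRH 3), with Myf5 dim on all 8 arrays. The adipocyte sum did not share these extremes: of 8 markers 7 passed, and the sum was 8.62 to 13 in PRH-labelled and 3.32 to 105 in control tumours, highest in control 1, where Mest stood at 0.39. Control 3 was lowest there too. By probe, it was lowest in 5 of 11 muscle, 8 of 9 endothelial, 7 of 8 adipocyte and 6 of 8 epithelial probes. The same held for 0 of 9 fibroblast and 1 of 10 myeloid probes, so a low control 3 was not particular to muscle markers. The part of these cells in the Mest values was not tested.

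**Figure D5:**
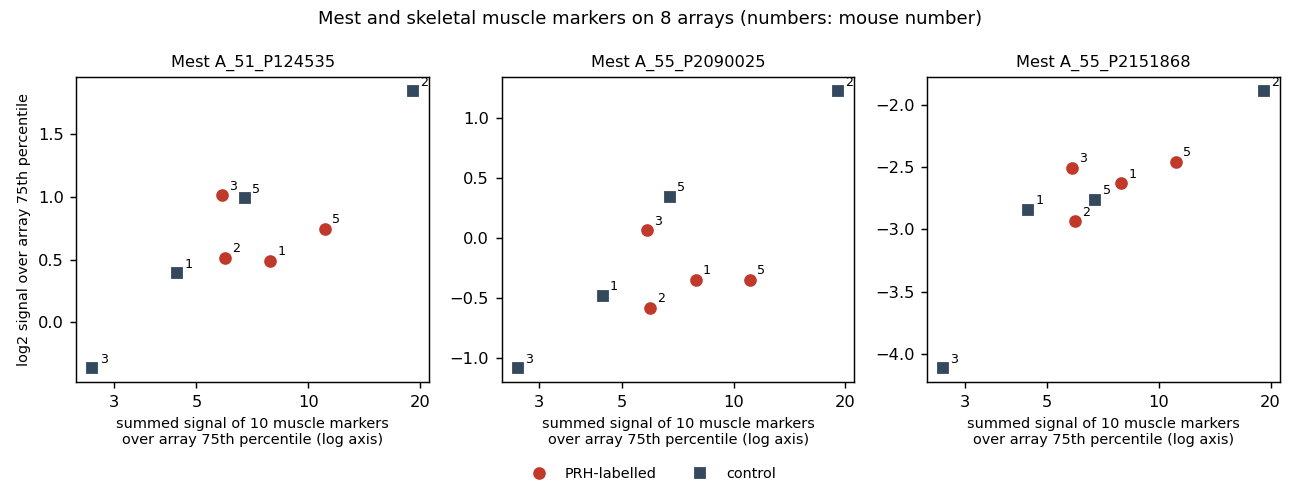
Level of each Mest probe (vertical axis, log2 signal over the array's 75th percentile) against the summed signal of 10 skeletal muscle markers over the same percentile (horizontal log axis), 8 arrays labelled by mouse number. Control 2 is at the top right and control 3 at the bottom left in all 3 panels.

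Peg3, a zinc finger gene expressed from the paternal copy, was dim. Its tested probe, A_52_P235861, was well above background on 3 of 4 PRH-labelled and 2 of 4 control arrays. It stood at -3.58, -7.92, -3.43 and -5.01 in PRH-labelled tumours and at -6.21, -5.03, -5.79 and -4.86 in control tumours. PRH 1 and PRH 3 were above, and PRH 2 below, all control arrays. The difference was 0.49 (SE 0.966, adjusted p = 0.720), and it ranged from -0.027 to 1.47 without single arrays. The other Peg3 probe was dim on all 8 arrays and not tested.

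Grb10 encodes an adaptor that inhibits signalling by the insulin and IGF receptors. Its probe stood at -4.27, -4.26, -3.80 and -3.56 in PRH-labelled tumours and at -3.78, -3.95, -4.03 and -4.31 in control tumours. The groups covered nearly the same range and differed by 0.04 (SE 0.208, adjusted p = 0.887). The sign turned in 4 of the other 5 scalings, with values down to -0.49.

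RefSeq start regions were at hand for 7 members, 11 regions in all, of which 2 for Mest overlap almost wholly. Their CpG count ran from 1 at a downstream Meg3 start to 45 at one of 2 Grb10 starts. The letters ATTAA, a homeodomain core, were found on either strand in 4 of 11, those of Ndn and Mest, against 27.1% of all 32851 regions. The letters GGGGCCC, part of the Plagl1 consensus, were found in 3 of 11, in Peg3, Mest and Grb10, against 6.66% of all (the 2 strands can match at overlapping places). The letters GCCATNT, part of the YY1 core, were found in 1 of 11, at a Grb10 start, against 15.1% of all.

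Other imprinted genes held calls in both directions. Of 65 listed, 60 had a probe and 52 a tested one. Of their 70 tested probes 7 were higher and 9 lower, that is 10% and 12.9%, beside 9.88% and 14.4% of tested probes with a gene name. The median difference was 0.00, beside -0.047 for probes with a gene name. Ins2, an insulin gene, stood at 0.82, 0.40, 0.60 and 0.50 in PRH-labelled tumours against -0.21, -0.83, -0.61 and -0.48 in control (difference 1.11, SE 0.172, adjusted p = 0.00709). Osbpl5, an oxysterol-binding protein gene, rose by 0.77 (SE 0.150, adjusted p = 0.0109), a call lost after median centring (0.30, adjusted p = 0.257). For Gnas, which encodes the stimulatory G protein alpha subunit, 2 dim probes rose by 1.46 and 1.30 (adjusted p = 0.0103 and 0.0180), of which the second lost its call in 2 of 8 fits without 1 array and also by the authors' values (0.28), and the last, bright on all arrays, differed by 0.17 (SE 0.145, adjusted p = 0.423). For Trappc9, a vesicle trafficking gene, 1 probe rose by 0.88 (SE 0.158, adjusted p = 0.00894) and the other differed by 0.35 (SE 0.145, adjusted p = 0.111). The first was lost after median centring (0.41, adjusted p = 0.0505) and in the authors' values (0.35, adjusted p = 0.0651).

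The largest fall among the tested probes of these genes, chosen after its values were seen, was that of Phlda2, a maternally expressed gene that limits placental growth. It stood at -2.89, -2.44, -2.19 and -2.34 in PRH-labelled tumours and at -2.02, -0.33, -0.64 and -0.37 in control tumours. No PRH-labelled array reached the lowest control array, control 1. The fall was of 1.62 on the log2 scale (SE 0.391, adjusted p = 0.0209), and it passed in 5 of 6 scalings (not with spike-in centring, adjusted p = 0.128) but in 3 of 8 fits without 1 array (adjusted p up to 0.0587). Slc38a4 of the same list, too dim to be tested, was lower by 2.44 without overlap, a size set by the floor of the arrays. Its PRH-labelled values (-7.83, -8.03, -7.64 and -7.68) were the same as those of undetected probes such as Zim1. Against the lowest level that was well above background on the PRH-labelled arrays, the control mean was 1.41-fold higher. It was well above background on 0 of 4 PRH-labelled and 2 of 4 control arrays. Igf2, the growth factor gene beside H19, stood at -4.55, -2.59, -4.38 and -2.21 in PRH-labelled tumours and at -2.74, -4.25, -6.02 and -3.67 in control tumours, a difference of 0.74 (SE 0.814, adjusted p = 0.520). Its spread was wide in both groups, and the difference was 0.12 without control 3, 1.21 without control 1 and 0.13 in the authors' values. Igf2r, whose receptor clears that factor, differed by -0.41 (SE 0.182, adjusted p = 0.136). It passed after median centring (-0.88, adjusted p = 0.0254) and without control 1 (-0.53, adjusted p = 0.0412).

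Among genes that keep imprints in place, 23 probes of 15 genes were tested, and 4 passed, each lower. That is 17.4%, beside 14.4% of probes with a gene name that were lower. Setdb1, a histone methyltransferase gene, fell by 0.80 (SE 0.183, adjusted p = 0.0173), Kdm1b, a histone demethylase gene of the oocyte, by 0.56 (adjusted p = 0.0452), Ctcf, the insulator protein gene of the H19 control region, by 0.46 (adjusted p = 0.0400) and Tet2, a gene for removal of DNA methylation, by 0.57 (adjusted p = 0.0488, other probe -0.45 and not passing). Kdm1b, Ctcf and Tet2 each passed in 1 of 8 fits without 1 array, and Setdb1 in 6 of 8. The Tet2 call was also lost with normexp (adjusted p = 0.0502) and in the authors' values (0.0725). Ctcf did not pass once mouse number was blocked (adjusted p = 0.0506). Among partners of the members, 32 probes of 21 genes were tested, with 2 higher and 4 lower. That is 6.25% and 12.5%, beside 9.88% and 14.4% of probes with a gene name. Insr, the insulin receptor that Grb10 binds, fell by 1.05 (SE 0.196, adjusted p = 0.00972), with its other probes at -0.36 and 0.24. Irs2, an insulin receptor substrate gene, rose by 0.62 (adjusted p = 0.0217), Cdk4, a cyclin-dependent kinase gene, by 0.72 (adjusted p = 0.00812, other probes 0.33 and -0.04), and Ep300, an acetyltransferase gene, fell by 0.84 (adjusted p = 0.00811). The Irs2 call held in 3 of 8 fits without 1 array. The Irs2 and Cdk4 calls were lost after median centring (0.15 and 0.26), and spike-in centring ended every call of these lists that is named here.

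Some cell type markers differed between the groups. The summed level of 7 epithelial markers was 365 to 446 times the 75th percentile in PRH-labelled and 282 to 345 in control tumours (exact permutation p = 0.0286), a sum carried by Krt18, the 1 marker of the 7 that was called (0.52, adjusted p = 0.0260). Epcam, Krt19 and Cldn7 were also higher, by 0.45, 0.51 and 0.70 (Cldn7 without overlap), and the Cldn4 probes by 0.71 and 0.29. Krt8 went the other way without overlap (-0.44, limma adjusted p = 0.0763), and Cdh1 differed by 0.04 (adjusted p = 0.923). None of these was called. The sums of fibroblast (8 of 8 markers, 275 to 355 against 284 to 414 in control), endothelial (8 of 8, 21.8 to 28.4 against 9.05 to 24.2) and myeloid markers (5 of 6, 91.1 to 125.2 against 88.2 to 126) overlapped. Within them Pdgfra and Pdgfrb of the fibroblast list fell by 0.73 and 0.66 (limma adjusted p = 0.0115 and 0.0376), while Col1a1 and Col1a2 differed by 0.075 and 0.21. Col3a1, Lum and Postn differed by -0.50, -0.53 and -0.50, and the Fbln1 probes by -0.53 and -0.63. Of the myeloid list Lyz2 and 1 probe each of Csf1r and Adgre1 fell by 0.86, 0.60 and 0.71 (adjusted p = 0.0167, 0.0332 and 0.0281). The other Csf1r probes differed by -0.52 and 0.0037, and the other Adgre1 probe by 0.022. Itgam probes differed by 0.81, -0.21 and 0.89, and Ptprc by -0.15. None of these other fibroblast and myeloid probes was called. Lower calls made up 22.2% of the 9 tested fibroblast and 30% of the 10 tested myeloid probes, beside 14.4% of probes with a gene name. A probe of the endothelial gene Kdr rose by 1.17 (adjusted p = 0.0243), while its other probe differed by -0.48 (adjusted p = 0.178). Of the muscle list Mylpf alone was called, higher, as given above. The part of cell make-up in the Plagl1 and Cdkn1c values was not tested.

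Genes whose level ran most like a member's were found among 14416 named genes well above background on all 8 arrays, by Pearson r over those arrays, as a description of 8 points that share scaling and position. Dlk1 ran closest to Prlr and Ifna5 (r = 0.982 and 0.974), and Mest to Nrip1 and Thsd1 (0.982 and 0.982). Plagl1 probe A_55_P1961965 ran closest to Dhx32 and Stmn4 (0.989 and 0.987), and Cdkn1c to Senp7 and Car2 (0.968 and 0.932). Meg3 ran closest to Sharpin and Slc9b2 (0.933 and 0.930), Ndn to Zfp870 and Ppp1r1b (0.990 and 0.983), and Grb10 to Fkbp10 and Gm2897 (0.865 and 0.843). Each is the highest of many values.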

How the data were processed

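Total RNA from 8 tumours, or from endothelial isolates of them (the labels name both), was labelled with Cy3 and read on 1-colour Agilent mouse arrays. The authors deposited spot intensities made with Feature Extraction 10.7.3.1 on build mm9, per the file headers, while the submitters' processing notes name version 9.1. They also deposited a table of normalized intensities whose background correction and offset are unknown (array medians 123.8 to 125.9). The files hold no symbols. Accessions were named through the RefSeq table of GRCm38.p6, which named 26582 probes.

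Here the spots of a probe were averaged as log2 of the processed signal less the array's 75th percentile. An outlier spot was left out only where its probe had another usable spot on that array. Of the member probes only Mest A_51_P124535 has more than 1 spot. Probes well above background on at least 4 of 8 arrays were tested one by one with the moderated linear models of limma 3.58.1 (R 4.3.3, group alone, two-sided, Benjamini-Hochberg, threshold 0.05), after a check on simulated data. The alternatives were 5 other scalings or sources, 2 filters, 1 probe per gene, the mouse number as a block and each array left out. Normexp used the median signal, since the planned mean signal column was not in the files used here. The number of arrays limits the precision, and no spot was saturated.

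Same-numbered arrays deviated together (r = 0.200, 0.422, 0.651 and 0.257 for mice 1, 2, 3 and 5), so the numbers pair the samples by the rule set for this, and blocked values are printed where they change a call. A p-value here reflects how far these tumours vary. Members, lists and tests were chosen with earlier results of these data known. Named genes are all members, up to 4 called genes of each list with the smallest p, Igf2, Igf2r, the 2 most alike genes of each member on all arrays, and Phlda2 and Slc38a4, added after their values were seen.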

Additional observations from a re-analysis of the deposited data

Results flagged for a closer look

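In 3 of 38 groups of 4 arrays, 1 array lay far from the other 3, by Dixon's test of the gap. Chance gives about 1 such group in 20. Plagl1 probe A_55_P2153251 was lowest in PRH 3, at -1.67 against 0.54 for the next array. Plagl1 probe A_52_P532456 was highest in control 2, at -0.15 against -0.84 for the next. Ndn probe A_52_P451644 was highest in PRH 3, at -0.26 against -1.55 for the next. The causes were not tested.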

How the results depend on the processing

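The count of called member probes, 1 in the report, moved under most alternatives. Median centring gave 3, quantile normalization 3, normexp 4 and the authors' values 4 of the 16, beside 32.9%, 27.1%, 34.9% and 25.0% of all tested probes. It was 3 of 16 with the mouse number as a replicate block, beside 34.4% of all tested probes. Over probes well above background on all 8 arrays it was 2 of 13, beside 31.5%. Without a filter it was 0 of 19, beside 17.4%. Without single arrays it ran from 0 to 2 of 16, beside 16.7% to 33.8% of all tested probes. With limma after centring on 7 spike-in probes it was 0, with 0 at an unadjusted p under 0.05, and over the whole array that centring left 3 calls (8029 at an unadjusted p under 0.05). Without a filter 5 of 19 member probes had an unadjusted p under 0.05, beside 17650 of all 55681 probes. Over the whole array the count ran from 6592 to 13354 without single arrays, and was 6667 without PRH 1, 6866 without PRH 5, 6708 without control 2 and 6592 without control 5, against 10326 in the report. The cause was not tested.

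Signs turned for the differences that follow. After median centring the differences were -0.26, -0.19 and -0.12 for Meg3 (A_51_P455997, A_55_P2033407 and A_52_P196568), -0.0049 for Dlk1, -0.20 for Mest A_55_P2151868, -0.034 for Plagl1 A_55_P1961965, -0.42 for Grb10, -0.17 for Ndn, -0.30 for Gnas A_55_P2081313, -0.11 for Trappc9 A_51_P330090, -0.23 for Insr A_55_P2173927 and -0.14 for Cdk4 A_55_P2163143. After quantile normalization they were -0.082 and -0.35 for the last 2 Meg3 probes, -0.031 for Dlk1, 0.010 and -0.15 for Mest A_51_P124535 and A_55_P2151868, -0.49 for Grb10 and -0.077 for the same Insr probe. In the authors' values they were -0.073 and -0.18 for those Meg3 probes, 0.091 and -0.14 for those Mest probes, -0.33 for Grb10, -0.086 for Insr and 0.11 for Cdk4 A_55_P2166639, which stood at 0.080 with normexp. Grb10 was at -0.084 with spike-in centring.

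Without single arrays, the ranges that crossed 0 were -0.094 to 0.43 and -0.046 to 0.55 for the first 2 Meg3 probes, -0.027 to 1.47 for Peg3, -0.39 to 0.35, -0.66 to 0.10 and -0.13 to 0.61 for Mest (A_51_P124535, A_55_P2090025 and A_55_P2151868), -0.093 to 0.14 for Grb10, -0.044 to 0.45 for Ndn and -0.12 to 0.014 for Cdk4 A_55_P2166639. The block changed no other call of a member than those given for Plagl1 and Peg10. Signal near background limits both Peg3 probes, the dimmer probes of Dlk1, Meg3 and Peg10, and Peg10 in mice 1 and 3 of the control group.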
